A study of Mus musculus with 20 samples.

Results

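The genes described here build and run the mitotic spindle: mitotic kinesins, the cyclins and kinases of mitotic entry, spindle checkpoint and anaphase proteins, the chromosomal passenger complex, centromere and kinetochore proteins, condensin and chromatin proteins, and spindle assembly factors. They were chosen as every probe whose gene name in the scanner files was that of 1 of 42 listed genes, with Cdk1 under its older name Cdc2a. Of the 42 genes, 38 were found in this way, with 67 of the 41174 probes on the array and among 28501 named genes. Ndc80, Nuf2 and Spc25, subunits of the kinetochore complex that holds microtubules, carry the older names Kntc2, Cdca1 and Spbc25 in the files and were reached through their accessions. Values for these 3 are given apart, and counts of measured genes below are over the 38. Levels of Ncapg, a condensin subunit, are not analysed here.

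Cells enter mitosis when Cdk1 is activated by cyclin B, and the kinases Plk1, Aurka and Aurkb then direct spindle assembly and chromosome attachment. The spindle checkpoint (Bub1, Bub1b, Bub3, Mad2l1, Ttk) holds Cdc20 and the anaphase-promoting complex inactive until all chromosomes are attached, after which cyclin B and securin (Pttg1) are destroyed and separase (Espl1) opens the sister chromatids. Most of these transcripts are abundant only in dividing cells. In adipose tissue, mature adipocytes do not divide, and the dividing cells include precursors, endothelial cells and immune cells. Adult hepatocytes are mostly quiescent.

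Many genes of the late cell cycle are known to share a promoter element, the cell cycle genes homology region, often placed near CCAAT boxes. The motif searched for it was TTTGAA, with the variant that has the letters TTCGAA, on both strands. RefSeq promoter windows (GRCm38.p6, 250 bases before to 50 after the start) were matched by symbol for 35 of the 42 listed genes, Ndc80, Nuf2, Spc25 and Ncapg among them. The 150 bases before the start are shown for 4 members that were lower in sg/sg WAT and for Pttg1, the 1 member that was higher, read 5′ to 3′ on the strand of the gene. Capitals mark the homology region and the CCAAT box on either strand; on the opposite strand the box reads ATTGG. The homology region of Kif11 is on the opposite strand, and Pttg1 holds neither motif. The 4 shown all hold both motifs, and genes that were lower and hold neither are named below.
Cdk1: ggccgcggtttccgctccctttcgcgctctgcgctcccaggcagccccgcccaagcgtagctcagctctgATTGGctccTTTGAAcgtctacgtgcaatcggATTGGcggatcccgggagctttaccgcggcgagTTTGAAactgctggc
Cdc20: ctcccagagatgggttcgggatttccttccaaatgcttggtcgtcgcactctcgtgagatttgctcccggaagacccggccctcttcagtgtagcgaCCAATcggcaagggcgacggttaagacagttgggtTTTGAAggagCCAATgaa
Kif11: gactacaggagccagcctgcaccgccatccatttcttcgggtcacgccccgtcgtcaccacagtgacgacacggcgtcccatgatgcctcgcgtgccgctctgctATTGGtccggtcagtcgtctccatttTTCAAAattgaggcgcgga
Espl1: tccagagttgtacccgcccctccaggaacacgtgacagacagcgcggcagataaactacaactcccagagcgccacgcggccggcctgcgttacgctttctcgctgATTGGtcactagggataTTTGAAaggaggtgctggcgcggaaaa
Pttg1: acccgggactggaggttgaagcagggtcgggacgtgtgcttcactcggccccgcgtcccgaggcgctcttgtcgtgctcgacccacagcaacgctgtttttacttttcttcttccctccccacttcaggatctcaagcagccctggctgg
Cdk1 lies on the minus strand (chr10:69352913-69353062), as do Cdc20 (chr4:118437344-118437493) and Pttg1 (chr11:43425982-43426131). Kif11 (chr19:37376232-37376381) and Espl1 (chr15:102296143-102296292) lie on the plus strand.

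Over whole windows, the homology region was present for 27 of these 35 genes (77.1%), against 5854 of 27025 genes with a window (21.7%). A CCAAT box was present for 27 of them (77.1%), against 41.1% of all genes, and both kinds together for 24 (68.6%), against 8.61%. Neither motif was in the window of 5 genes (14.3%), against 53.6% of all genes. Of these 5, Pttg1 was higher in sg/sg WAT, and Birc5, Mad2l1, Kif18a and Nuf2 were lower. A match is a run of letters and not a measured binding site.

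The 4 groups were sg/sg WAT, WT WAT, sg/sg liver and WT liver, with 5 arrays each. All were male C57BL/6 mice, 5 months old, kept for 6 weeks on a diet with 35% fat, so no group on a standard diet was measured. The sg/sg mice are homozygous for staggerer (RORasg/sg), a deletion that arose naturally within Rora and that all their cells carry. Rora encodes the nuclear receptor RORalpha. WAT is white adipose tissue, and its depot is not named in the labels.

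Total RNA labelled with Cy3 was hybridised to Agilent mouse arrays with 1 colour. All 3 Rora probes were lower in sg/sg in both tissues, by 2.72 to 2.75 in WAT and 2.81 to 2.88 in liver on the log2 scale, with every sg/sg array below every WT array. Adipocyte and hepatocyte markers were bright in their own tissues. From 72.5% to 81.5% of probes were well above background on the WAT arrays and 57.1% to 63.0% on the liver arrays. Levels are log2 intensities relative to the 75th percentile of the array, so a level of 0 is as bright as that percentile. The 2 tissues were hybridised on different slides and scanners, so a difference of level between them cannot be told apart from those. WT WAT replicate 2 stood apart: its summed level of 5 epididymis and testis markers was 35.4, against 0.29 to 0.63 on the sg/sg and 0.34 to 4.89 on the other WT arrays, and the counts of members called are also given without it.

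In WAT the mitotic genes were lower in sg/sg mice almost as a block. All 38 members were bright enough to test, and 36 fell at an adjusted p under 0.05 (limma, Benjamini-Hochberg over all probes tested), against 9.21% of all 22287 genes tested. Pttg1 rose, where 13.8% of all genes did, and Kif2c did not pass. The median log2 fold change of the members, sg/sg over WT, was -1.60, against 0.09 for all genes, and 33 members were at least 2-fold lower. Every sg/sg array lay below every WT array for 35 members, where 8.49% of all genes did so. With the 3 genes reached by accession, 39 of 41 fell. In RNA from whole tissue, fewer dividing cells and less RNA per dividing cell cannot be told apart.

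**Figure D1:**
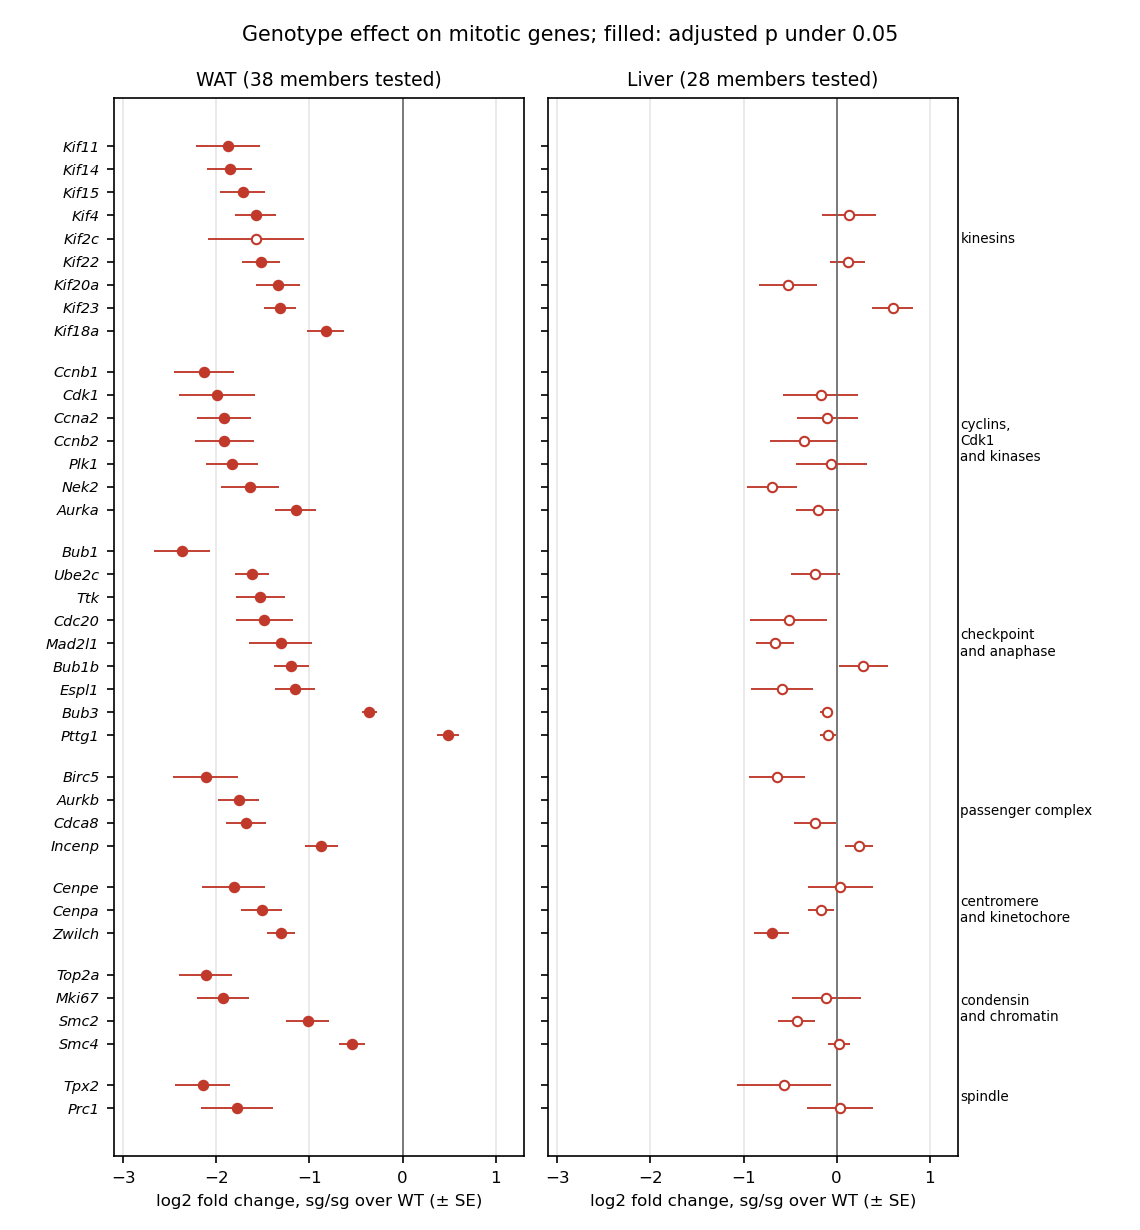
Log2 fold change of each member, sg/sg over WT, with its standard error, in WAT on the left and liver on the right, grouped by role. Filled points passed an adjusted p of 0.05: in WAT 36 lie left of 0 and Pttg1 right of it, and in liver Zwilch alone is filled.

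The cyclins and kinases of mitotic entry were lower without exception: 7 of 7 members fell in WAT, with a median of -1.91. Ccnb1 encodes cyclin B1, which activates Cdk1. It was at -4.61, -3.97, -3.94, -5.00 and -4.15 on the sg/sg arrays and at -2.02, -1.24, -2.31, -2.37 and -3.06 on the WT arrays. The groups did not overlap, and the level was 4.39-fold lower in sg/sg (log2 -2.14, SE 0.32, adjusted p = 0.00208). Ccna2 encodes cyclin A2, which acts from S phase to early mitosis. Its levels were -2.52, -1.65, -1.32, -2.32 and -1.75 in sg/sg WAT and 0.03, 0.69, 0.05, -0.01 and -0.72 in WT WAT. Again no sg/sg array reached a WT array (log2 -1.92, SE 0.29, adjusted p = 0.00196). Ccnb2, the second B-type cyclin, averaged -0.50 ± 0.60 in sg/sg and 1.42 ± 0.50 in WT WAT (SD, n = 5 each), a log2 difference of -1.91.

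Cdk1, the kinase that these cyclins activate, was at -2.88, -2.57, -2.06, -4.11 and -2.17 in sg/sg WAT and at -0.83, 0.18, -0.80, -0.92 and -1.46 in WT WAT by its brighter probe. That is 3.97-fold lower (log2 -1.99, SE 0.41, adjusted p = 0.0077). A dim second Cdk1 probe had a log2 difference of -0.64 and did not pass (adjusted p = 0.178). Among the other kinases, Plk1, which acts on centrosomes and kinetochores, fell by 1.83, Nek2, which separates centrosomes, fell by 1.63, and Aurka, which builds the spindle poles, fell by 1.15 on the log2 scale.

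Of the 9 mitotic kinesins, motors that move along or depolymerise microtubules, 8 fell in WAT. Kif14, a motor of the central spindle and cytokinesis, was at -6.47, -5.95, -5.56, -5.81 and -6.00 in sg/sg and at -4.27, -3.42, -4.17, -3.94 and -4.71 in WT WAT. It was dim on all 10 arrays, well above background on each, and lower on every sg/sg array (log2 -1.86, SE 0.24, adjusted p = 0.00121). Kif23, a subunit of the centralspindlin complex that bundles microtubules between the separating chromosomes, was at -2.88, -2.61, -2.49, -2.71 and -2.75 in sg/sg and at -1.58, -0.92, -1.19, -1.26 and -1.89 in WT WAT. Its groups were separate and its sg/sg arrays close together (2.49-fold lower, log2 -1.32, SE 0.18, adjusted p = 0.00131). Kif22, which pushes chromosome arms towards the middle of the spindle, was at -1.19, -0.22, -0.29, -0.40 and -0.38 in sg/sg and at 1.07, 1.47, 1.01, 0.88 and 0.68 in WT WAT. It fell by 1.52 (SE 0.21, adjusted p = 0.00142).

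The other kinesins that fell spanned log2 fold changes of -1.88 to -0.83. Kif11, the motor that pushes the spindle poles apart, and Kif15, its partner in keeping the spindle bipolar, fell by 1.88 and 1.72. Kif4, which organises chromosomes and the central spindle, fell by 1.58, and Kif20a, needed for cytokinesis, fell by 1.34. Kif18a, which damps chromosome movements, had the smallest change of the family (log2 -0.83, SE 0.20, adjusted p = 0.0163), and its groups overlapped. Kif2c, a microtubule depolymerase at centromeres, was at -5.23, -6.17, -4.79, -6.30 and -6.15 in sg/sg and at -4.56, -2.28, -4.37, -4.39 and -5.19 in WT WAT. The groups overlapped and WT replicate 2 was far above the rest (log2 -1.57, SE 0.52, adjusted p = 0.0532).

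Checkpoint and anaphase genes held both the largest decrease among the 38 members and the only increase. Bub1, a checkpoint kinase at kinetochores, was at -5.72, -4.87, -4.69, -5.51 and -5.17 in sg/sg and at -2.70, -1.99, -2.85, -2.93 and -3.64 in WT WAT. No sg/sg array reached a WT array, and the level was 5.17-fold lower (log2 -2.37, SE 0.30, adjusted p = 0.00111). Ube2c, the ubiquitin-conjugating enzyme of the anaphase-promoting complex, was at -1.96, -1.58, -1.75, -2.25 and -1.90 in sg/sg and at -0.06, 0.13, -0.20, -0.45 and -0.75 in WT WAT. It was 3.08-fold lower (log2 -1.62, SE 0.18, adjusted p = 0.00076).

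Ttk, the kinase that starts checkpoint signalling, fell by 1.53, and Cdc20, the activator that the checkpoint restrains, fell by 1.49. Mad2l1, the inhibitor that binds Cdc20, fell by 1.31, Bub1b, its partner in that inhibition, by 1.19, and Espl1, the protease separase, by 1.16 on the log2 scale. Bub3, which brings Bub1 to kinetochores and is bright in every group, changed least of those that fell. It was at 2.56, 2.55, 2.48, 2.35 and 2.52 in sg/sg and at 2.92, 2.89, 2.85, 2.83 and 2.75 in WT WAT, separate but only 1.28-fold apart (log2 -0.36, SE 0.08, adjusted p = 0.0134). Its 2 other tested probes had log2 differences of -0.17 and 0.05 and did not pass (adjusted p = 0.381 and 0.812).

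Pttg1, securin, the inhibitor of separase, was at 3.82, 3.75, 3.84, 4.21 and 3.96 in sg/sg and at 3.27, 3.28, 3.52, 3.55 and 3.51 in WT WAT. Every sg/sg array lay above every WT array, as it did for 13.3% of all genes, and the level was 1.4-fold higher (log2 0.49, SE 0.12, adjusted p = 0.0141). Scaled to the median in place of the 75th percentile, its adjusted p was 0.0577 at the same size. Its single probe lies at chr11:43377052-43377111 in the coordinates of the files (mm7).

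All 4 members of the chromosomal passenger complex, which corrects wrong attachments and then guides cytokinesis, fell in WAT. Aurkb, its kinase, was at -3.92, -3.35, -2.86, -3.64 and -3.24 in sg/sg and at -1.71, -1.17, -1.66, -1.58 and -2.09 in WT WAT (log2 -1.76, SE 0.22, adjusted p = 0.00104). Cdca8, borealin, was at -0.70, -0.12, 0.07, -0.40 and -0.17 in sg/sg and at 1.58, 2.0, 1.43, 1.26 and 0.83 in WT WAT (log2 -1.68, SE 0.22, adjusted p = 0.00124). Neither gene's groups overlapped. Birc5, survivin, had the largest decrease of the 4, 4.34-fold, with a mean of -0.16 ± 0.48 in sg/sg and 1.95 ± 0.71 in WT WAT (SD, n = 5 each). Incenp, the scaffold that binds the other 3, was at 1.18, 1.55, 1.69, 1.61 and 1.53 in sg/sg and at 2.38, 2.97, 2.27, 2.30 and 2.0 in WT WAT. Its decrease was 1.83-fold (log2 -0.87, SE 0.18, adjusted p = 0.00711).

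Centromere and kinetochore genes fell throughout. Spc25, a subunit of the complex that couples kinetochores to microtubules and reached by accession, had the largest decrease of all 41 genes. It was at -3.31, -2.50, -2.67, -3.72 and -2.44 in sg/sg and at 0.10, 0.58, -0.18, -0.18 and -0.64 in WT WAT, 7.29-fold lower (log2 -2.87, SE 0.29, adjusted p = 0.000592). Ndc80 and Nuf2 of the same complex fell by 2.24 and 1.90. Zwilch belongs to the complex that recruits dynein and checkpoint proteins to kinetochores. It was at -2.78, -2.60, -2.84, -2.92 and -2.89 in sg/sg and at -1.39, -1.04, -1.74, -1.54 and -1.77 in WT WAT, with little spread within sg/sg (log2 -1.31, SE 0.15, adjusted p = 0.00076). Cenpa, the histone that marks centromeres, was at -2.91, -2.37, -2.22, -2.90 and -2.30 in sg/sg and at -1.18, -0.40, -1.03, -1.01 and -1.51 in WT WAT (log2 -1.51, SE 0.22, adjusted p = 0.00177). Cenpe, a kinetochore motor, fell by 1.81.

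Among condensin and chromatin genes all 4 fell. Top2a, the topoisomerase that untangles sister chromatids, was at -4.31, -3.86, -3.39, -4.64 and -3.99 in sg/sg and at -1.96, -1.20, -1.81, -1.96 and -2.68 in WT WAT (log2 -2.12, SE 0.29, adjusted p = 0.00142). Mki67 encodes Ki-67, the widely used proliferation marker that coats mitotic chromosomes. It was at -1.38, -0.54, -0.13, -1.13 and -0.62 in sg/sg and at 1.15, 1.80, 1.22, 1.16 and 0.51 in WT WAT, without overlap and 3.81-fold lower (log2 -1.93, SE 0.28, adjusted p = 0.00168). The condensin ATPases changed less: Smc2 fell by 1.02 and Smc4 by 0.54. Smc4 was at 1.69, 2.21, 2.26, 1.76 and 2.16 in sg/sg and at 2.36, 2.72, 2.60, 2.59 and 2.51 in WT WAT, and its dimmer probe fell by 1.03.

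Both spindle assembly genes fell. Tpx2, which activates Aurka on spindle microtubules, was at -3.80, -3.20, -2.81, -3.82 and -3.20 in sg/sg and at -1.02, -0.39, -1.27, -1.45 and -1.97 in WT WAT (log2 -2.15, SE 0.30, adjusted p = 0.00146). Prc1, which crosslinks microtubules of the central spindle, was at -1.93, -0.44, -0.39, -2.06 and -0.85 in sg/sg and at 0.52, 1.29, 0.90, 0.59 and -0.08 in WT WAT (log2 -1.78, SE 0.38, adjusted p = 0.00972). Of all 57 tested probes of the 38 members, 52 were called lower in WAT and 1 higher, where 9.15% and 12.8% of all 32315 tested probes were.

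**Figure D2:**
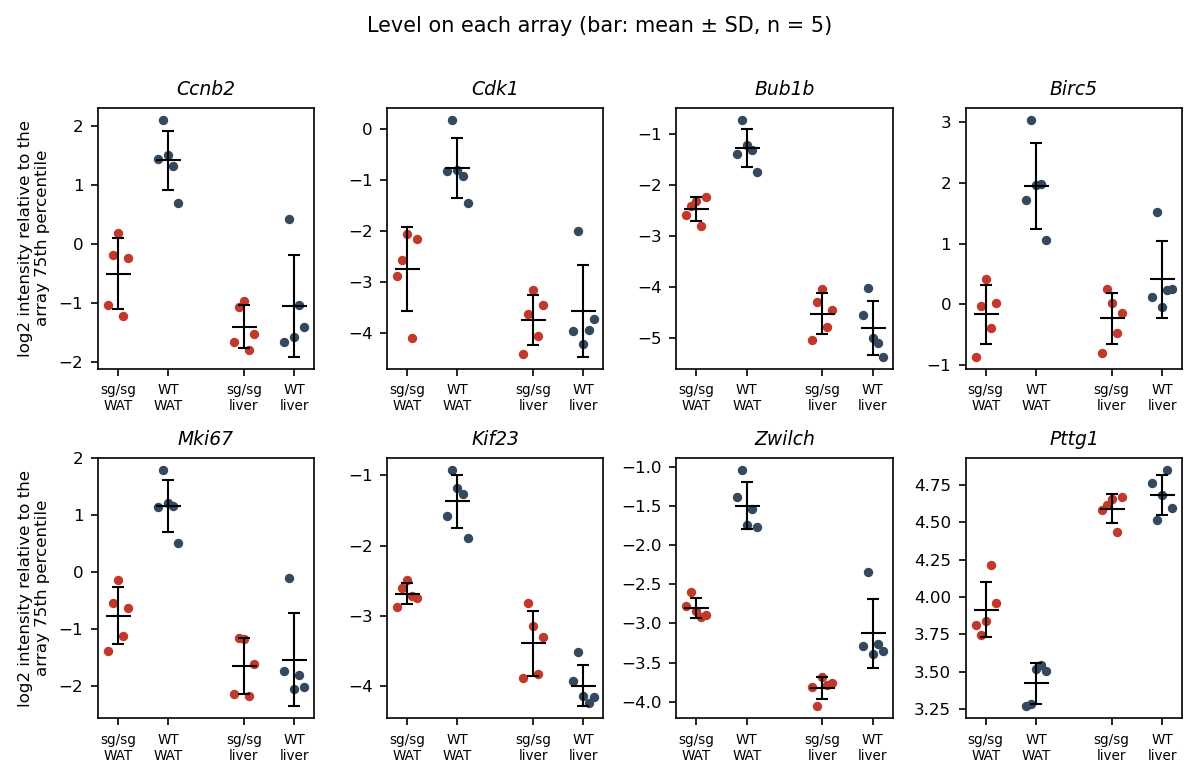
Level of 8 members on every array, as log2 intensity relative to the array's 75th percentile, for sg/sg and WT in WAT and then in liver. Bars give the mean and SD of 5 arrays. In WAT the groups are separate for all 8 genes, with Pttg1 alone higher in sg/sg, and in liver 1 WT array is high for most.

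The order of the arrays was much the same from member to member in WAT. WT replicate 2 was the highest of the WT arrays for 36 of the 38 members and WT replicate 5 the lowest for 36. Among sg/sg arrays replicate 3 was highest for 26 members, and replicates 4 and 1 were lowest for 19 and 17. Averaged over the members, the sg/sg arrays lay at -1.76, -1.36, -1.14, -1.87 and -1.41 relative to the WT mean, and the WT arrays at -0.04, 0.63, 0.02, -0.05 and -0.56. The highest sg/sg array therefore lay below the lowest WT array. Without WT WAT replicate 2, the array high in epididymis and testis markers, 36 members fell, 1 rose and the median was -1.47. Without WT WAT replicate 5, 37 fell, Kif2c among them.

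**Figure D3:**
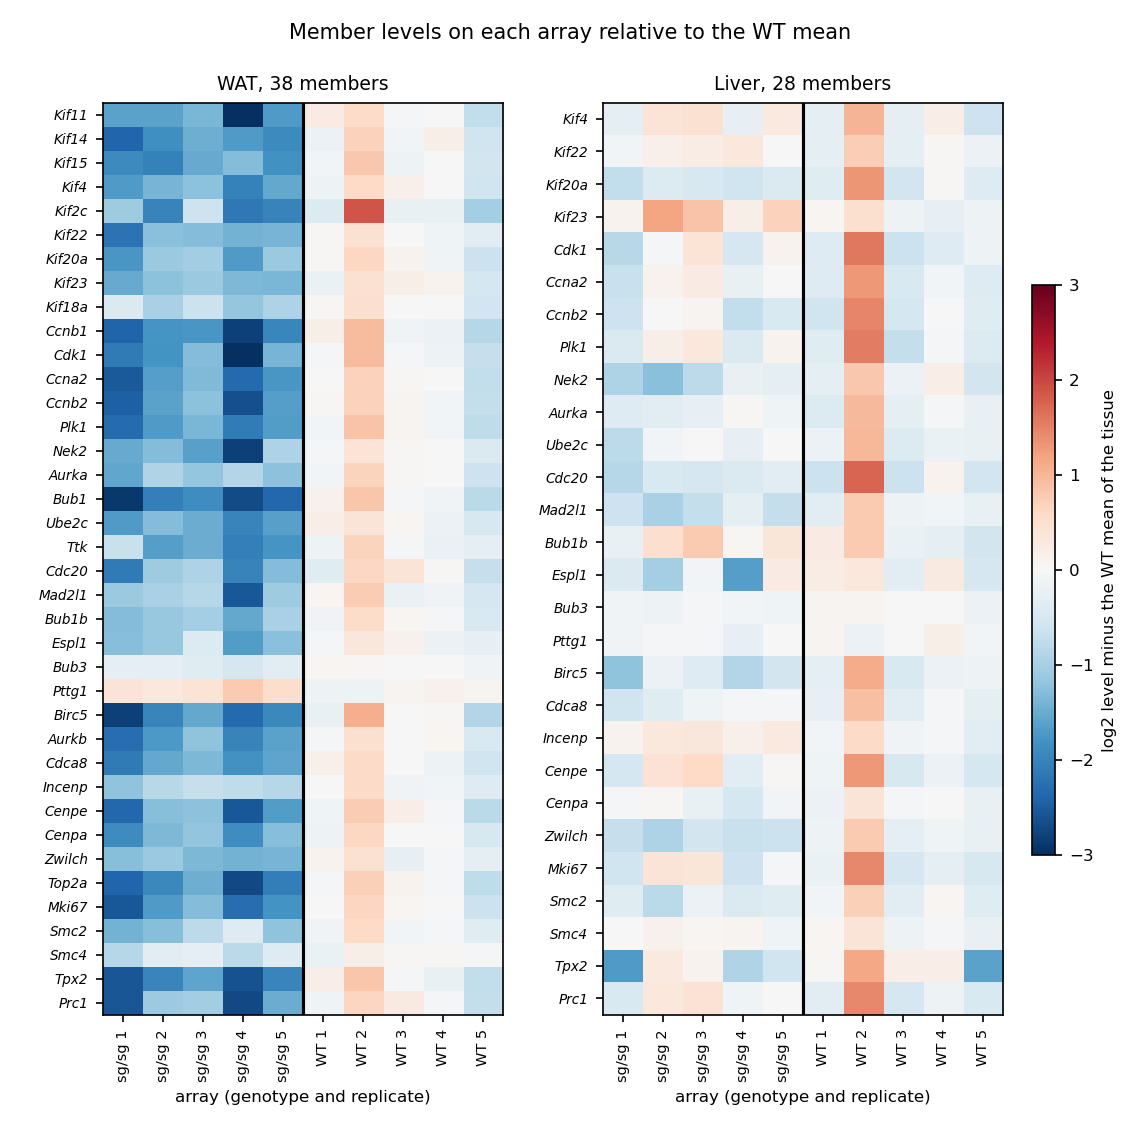
Level of each member (rows) on each array (columns), as a log2 difference from the WT mean of the tissue, in WAT for 38 members and in liver for 28. In WAT the 5 sg/sg columns are below 0 for nearly every row, with Pttg1 the exception, and in liver WT replicate 2 is the highest WT column for 27 of 28 rows.

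Each of the 3 WAT slides carried both genotypes. With slide as a block 36 members fell and 1 rose, with a median of -1.56. Within slide 4 (2 sg/sg and 2 WT arrays), slide 5 (2 and 1) and slide 6 (1 and 2), 37 members were lower in sg/sg and 1 higher on each, with medians of -1.74, -0.75 and -2.10. Of all genes 39.3%, 43.0% and 40.8% were lower on these slides. Within a single slide limma called 0 members and 0 of all genes; at an unadjusted p under 0.05, 34, 20 and 32 members were lower on slides 4, 5 and 6, and 15.6%, 16.4% and 13.5% of all genes passed in either direction. Normexp background correction with the local background called 10 members lower in WAT and is described with the other processing choices. Without the local background it called 34.

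Markers of other cell types moved with genotype in WAT as well. Of 14 macrophage markers, 9 fell (median log2 fold change -0.75), among them Adgre1, a surface receptor of macrophages, by 1.32, and Cd68 by 1.88. Their summed linear level was 169 to 227 on the sg/sg arrays and 234 to 398 on the WT arrays, highest on WT replicate 2. Of 10 T and NK cell, 8 endothelial and 6 B and plasma cell markers, 0 passed (limma), and at an unadjusted p under 0.05 the T and NK cell list had 1 lower, the endothelial list 0 and the B and plasma cell list 2 higher. Of 9 fibroblast and adipose progenitor markers 2 fell and 0 rose. At an unadjusted p under 0.05 (limma) 3 of these were lower and 2 higher. Their summed level was 242 to 293 in sg/sg and 255 to 305 in WT WAT. Of 6 mesothelial markers 4 rose, and their summed level was 22.6 to 35.7 in sg/sg and 6.70 to 29.0 in WT WAT. Of 5 erythroid markers 1 rose, with a summed level of 203 to 247 in sg/sg and 102 to 201 in WT WAT, without overlap. Among all single genes tested in WAT, 13.3% had every sg/sg array above every WT array, 13.8% were called higher and 9.21% lower. Of 6 adipocyte markers 2 rose and 1 fell, with sums of 752 to 1003 in sg/sg and 541 to 790 in WT WAT. Of 5 neutrophil markers 1 fell, while the median log2 fold change of the list was 0.58. At an unadjusted p under 0.05 (limma) 1 neutrophil marker was lower and 1 higher. The neutrophil sums were 0.63 to 1.44 in sg/sg and 1.36 to 2.21 in WT WAT, overlapping. The part of these cell types in the change of the mitotic genes was not tested.

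In liver the mitotic genes did not move as a block. There 28 of the 38 members could be tested, and 1 of them fell, where 6.66% of all 17291 genes tested did. None rose, where 8.84% of all genes did, 0 had every sg/sg array above every WT array, where 7.14% of all genes had, and at an unadjusted p under 0.05 (limma) 3 members were lower and 1 higher. At that threshold 33.6% of all genes passed in either direction. The median log2 fold change was -0.17, against 0.05 for all genes. The 10 members not tested, Kif2c, Kif11, Kif14, Kif15, Kif18a, Ccnb1, Bub1, Ttk, Aurkb and Top2a, were well above background on fewer than 4 of the 10 liver arrays, and so was Ndc80. For Kif14, Kif15 and Ttk no liver array of either genotype was well above background with any probe.

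Zwilch was the member called in liver. Its levels were -3.82, -4.06, -3.69, -3.79 and -3.76 in sg/sg and -3.29, -2.34, -3.39, -3.26 and -3.36 in WT liver. The groups did not overlap, as for 5.76% of all genes in that direction, and the level was 1.62-fold lower (log2 -0.70, SE 0.19, adjusted p = 0.0357). With slide as a block it was not called (log2 -0.50, adjusted p = 0.774), nor when any 1 array other than WT replicates 2 and 5 was left out (adjusted p = 0.0509 to 0.0703). Slide 1 held 4 WT livers, slide 3 held 2 sg/sg livers, and slide 2 alone held both genotypes, with 3 sg/sg and 1 WT array. In that block no member was called and the members' median was 0.10. Of all 17289 genes 2 were called with it, against 2680 without the block. The block compares the genotypes within slide 2 alone. The smaller comparison and a difference between slides cannot be told apart in the drop in calls.

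Mad2l1 was at -2.52, -2.87, -2.62, -2.20 and -2.61 in sg/sg and at -2.22, -1.11, -2.06, -1.98 and -2.13 in WT liver (log2 -0.66, SE 0.21, adjusted p = 0.0539). Only sg/sg replicate 4 reached into the WT range. Nek2 was at -2.86, -3.19, -2.73, -2.16 and -2.23 in sg/sg and at -2.21, -1.13, -2.12, -1.73 and -2.49 in WT liver (log2 -0.70, adjusted p = 0.106). Kif23 had the highest fold change of the members in liver and did not pass: it was at -3.89, -2.81, -3.15, -3.82 and -3.30 in sg/sg and at -3.93, -3.51, -4.15, -4.24 and -4.16 in WT liver (log2 0.60, SE 0.22, adjusted p = 0.086). Its other probe had a log2 difference of 0.65 (adjusted p = 0.0672). The groups overlapped for both probes. Birc5 was at -0.80, 0.25, 0.03, -0.48 and -0.14 in sg/sg and at 0.12, 1.52, -0.05, 0.23 and 0.25 in WT liver (log2 -0.64, adjusted p = 0.165).

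No other member passed in liver. Kif20a was at -1.93, -1.60, -1.68, -1.80 and -1.63 in sg/sg and at -1.57, 0.12, -1.79, -1.17 and -1.60 in WT liver (log2 -0.53, adjusted p = 0.266). Incenp was at 0.73, 0.96, 0.97, 0.78 and 0.93 in sg/sg and at 0.54, 1.20, 0.53, 0.57 and 0.33 in WT liver (log2 0.24, adjusted p = 0.286). In both genes WT replicate 2 was the highest array. Ccnb2 was at -1.66, -1.07, -0.97, -1.78 and -1.52 in sg/sg and at -1.65, 0.42, -1.57, -1.04 and -1.41 in WT liver (log2 -0.35, adjusted p = 0.538). Mki67 was at -2.13, -1.16, -1.18, -2.16 and -1.60 in sg/sg and at -1.73, -0.10, -2.05, -1.80 and -2.02 in WT liver (log2 -0.11, adjusted p = 0.865). In both genes WT replicate 2 stood well above all other arrays, which overlapped.

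Cenpa was at -2.06, -2.0, -2.27, -2.57 and -2.12 in sg/sg and at -2.21, -1.64, -2.07, -2.03 and -2.25 in WT liver (log2 -0.17, adjusted p = 0.442). Smc2 was at -4.13, -4.57, -3.92, -4.20 and -4.11 in sg/sg and at -3.83, -3.04, -4.07, -3.70 and -4.13 in WT liver (log2 -0.43, adjusted p = 0.167). Tpx2 was at -6.18, -4.20, -4.37, -5.40 and -5.09 in sg/sg and at -4.44, -3.33, -4.28, -4.29 and -6.08 in WT liver (log2 -0.56, adjusted p = 0.464). These 3 overlapped between genotypes. Prc1 was at -2.55, -1.77, -1.66, -2.23 and -2.10 in sg/sg and at -2.45, -0.66, -2.59, -2.25 and -2.56 in WT liver (log2 0.04, adjusted p = 0.953). Espl1 was well above background on 0 of 5 sg/sg and 4 of 5 WT liver arrays, with means of -5.55 ± 0.76 and -4.96 ± 0.39 (SD, n = 5 each), and no bound on its fold above 1 could be given. The 2 tested Smc4 probes had log2 differences of 0.03 and -0.06. Kif4, Ccna2, Cdk1, Plk1, Aurka, Bub1b, Bub3, Cdc20, Ube2c, Cdca8 and Cenpe had overlapping groups and log2 fold changes from -0.52 (Cdc20) to 0.29 (Bub1b).

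WT liver replicate 2 was the highest WT array for 27 of the 28 members. Averaged over the members it lay at 0.93 relative to the WT mean, the other WT livers at -0.38 to -0.04 and the sg/sg livers at -0.50 to 0.03. On the same array the summed level of 3 adipocyte markers was 37.5, against 5.66 to 9.0 on the sg/sg and 7.18 to 12.5 on the other WT livers, and that of 5 hepatocyte markers was 962, the lowest of all 10 livers. Without it the members' median was 0.02, 1 member fell and Incenp rose (log2 0.38, adjusted p = 0.0348). Of 13 macrophage markers tested in liver, 5 rose, with a summed level of 146 to 193 in sg/sg and 87.8 to 159 in WT liver. Of 8 endothelial markers 3 rose, with a summed level of 18.2 to 21.6 in sg/sg and 13.0 to 17.6 in WT liver. The hepatocyte markers, of which 1 of 5 rose, summed to 1425 to 1732 in sg/sg and 962 to 1371 in WT liver. The macrophage sums overlapped between genotypes, and the endothelial and hepatocyte sums did not. Of all single genes tested, 7.14% had every sg/sg liver array above every WT liver array. Slide 2 alone held both genotypes, so slide and genotype are largely confounded in these liver values. The part of these markers was not tested.

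The difference of the genotype effect between tissues was tested as an interaction over all 20 arrays, for 28 members and 17079 genes. The effect was lower in WAT than in liver for 17 members, where 9.63% of all genes were, and higher for Pttg1, where 11.1% were. The smallest p were those of Kif23 (-1.92, SE 0.29, adjusted p = 0.000172), Kif22 (-1.64, SE 0.29, adjusted p = 0.000644), Cenpa (-1.35, SE 0.27, adjusted p = 0.0016) and Incenp (-1.11, SE 0.23, adjusted p = 0.00255) on the log2 scale. Kif22 was at -0.93, -0.71, -0.63, -0.53 and -0.87 in sg/sg and at -1.15, -0.12, -1.14, -0.82 and -1.04 in WT liver, overlapping, where its WAT groups were separate. Spc25, by accession, differed by -2.66. Pttg1 differed by 0.58 (SE 0.14, adjusted p = 0.00638), and its liver levels were 4.58, 4.61, 4.65, 4.43 and 4.67 in sg/sg and 4.76, 4.51, 4.68, 4.85 and 4.60 in WT.

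The other 10 members, Zwilch, Mad2l1, Espl1, Bub3, Smc2, Nek2, Aurka, Cdc20, Kif20a and Tpx2, did not pass the test of this difference. Their differences were all below 0, from -1.58 (Tpx2) to -0.25 (Bub3), with adjusted p from 0.0516 to 0.355. With slide as a block 6 members passed, all lower, and 609 of all genes passed, against 3549 without the block. Without WT WAT replicate 2, 13 were lower, and without WT liver replicate 2, 22. Whether the liver and WAT arrays came from the same mice is not stated in the labels, and the fit treats them as separate.

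The same probe represented 27 of the members in both tissues. WT WAT had the highest mean level of the 4 groups for 25 of them, with sg/sg WAT next for 19, and WT liver had it for Nek2 and Pttg1. An order between tissues cannot be told apart from their different slides and scanners, and the share of all genes with it was not counted. Ccna2 was at -1.91 ± 0.49 in sg/sg WAT, 0.01 ± 0.50 in WT WAT, -2.49 ± 0.36 in sg/sg liver and -2.39 ± 0.75 in WT liver (SD, n = 5 each). For this gene the 2 livers did not differ beyond their spread. Birc5 had another order: sg/sg WAT, at -0.16 ± 0.48, and sg/sg liver, at -0.23 ± 0.42, were within their spread of each other. Pttg1 was brighter in the livers, at 4.59 ± 0.09 in sg/sg and 4.68 ± 0.13 in WT, than in WAT.

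Other genes of the cell cycle were set beside the members. Of 68 further mitotic genes tested in WAT, 52 fell and 1 rose (median -1.39), with Gtse1, which stabilises microtubules in dividing cells, 7.56-fold and Melk, a kinase of proliferating cells, 4.39-fold lower. Of 22 S phase genes 18 fell (median -0.88). Mcm5, a subunit of the replicative helicase, was 3.03-fold lower (log2 -1.60, adjusted p = 0.000775), and Tk1, thymidine kinase, 4.98-fold (log2 -2.32, adjusted p = 0.00194). Subunits and regulators of the anaphase-promoting complex, which also act outside mitosis, had a median of 0.10, and 11 of 14 were not called. The others were Anapc13 and Cdc23, higher by 0.47 and 0.28, and Fbxo5, an inhibitor of the complex, lower by 0.64. Of all genes tested in WAT 9.21% fell and 13.8% rose.

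Of 19 cell cycle transcription factors 6 fell and 2 rose in WAT. Foxm1, the activator of late cell cycle genes, fell by 1.32 (SE 0.21, adjusted p = 0.00267), E2f8, a repressor that is itself made in dividing cells, by 2.07 (SE 0.21, adjusted p = 0.000574) and E2f1 by 0.79, and E2f5 rose by 0.43. Of 15 D-type cyclins, their kinases and Cdk inhibitors, 4 fell, 2 rose and 9 did not pass (median 0.06). The 2 that rose were the inhibitors Cdkn1c and Cdkn2c, by 1.0 and 1.14, and Cdk6, 1 of the 4, fell by 0.89. Kinesins that carry cargo outside mitosis were mostly not called, with 3 of 19 lower (Kif3b, Kif21b and Kif5a) and Kif13a higher (median -0.17). These counts stand beside 9.21% of all genes tested in WAT that were called lower and 13.8% called higher.

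In liver, 1 of 49 further mitotic genes tested fell (Cenpp, by 0.66) and 1 rose (Cdca2, by 0.50), while 5 of 21 S phase genes fell (median -0.35). Ccne2, cyclin E2, was 2.28-fold lower (log2 -1.19, adjusted p = 0.0125) and Tyms, thymidylate synthase, 1.47-fold lower (log2 -0.56, adjusted p = 0.0141). Of 19 cell cycle transcription factors 0 fell and 2 rose. Of 14 D-type cyclins, their kinases and Cdk inhibitors tested, 3 fell and 1 rose. Of all genes tested in liver 6.66% fell and 8.84% rose. The transcription factor E2f2 was 2.45-fold higher (log2 1.29, adjusted p = 0.00483), and Ccnd1, cyclin D1, 2.12-fold lower (log2 -1.08, adjusted p = 0.0302) with overlapping groups.

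**Figure D4:**
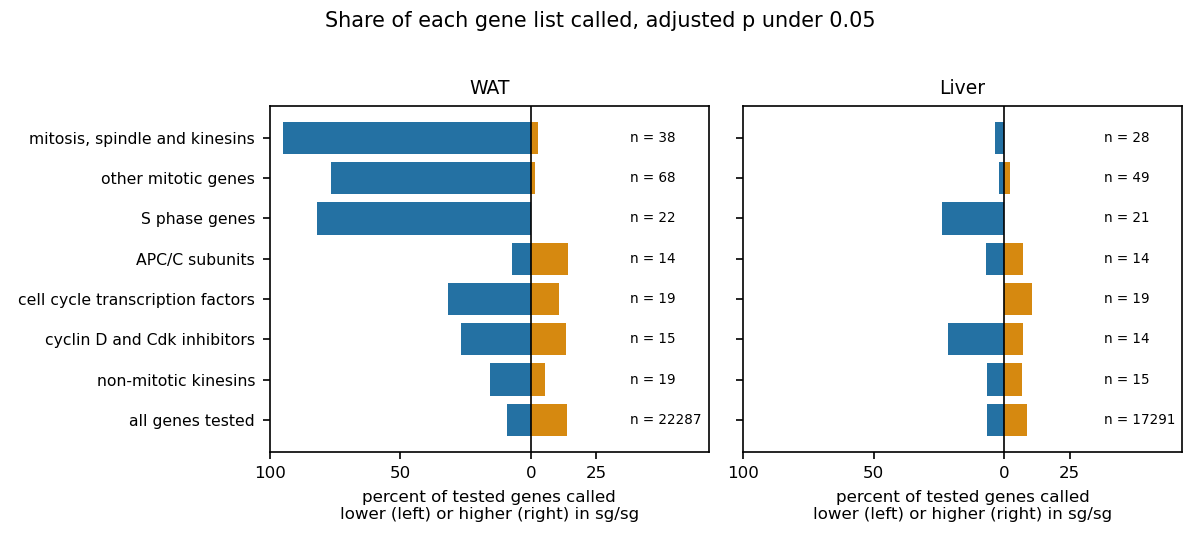
Percent of tested genes of each list called lower (blue, left) or higher (orange, right) in sg/sg at an adjusted p of 0.05, in WAT and in liver, with the number tested beside each bar. In WAT the mitotic and S phase lists reach furthest left, with 36 of 38, 52 of 68 and 18 of 22 genes lower, against 9.21% of all genes tested.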

How the data were processed

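RNA from 20 tissue samples, 5 per genotype and tissue, was measured on Agilent 1-colour arrays scanned and extracted with Agilent Feature Extraction 9.5, per the submitters' processing notes. The deposited intensity of each spot is the processed signal, already corrected for background, per the file headers. The value table deposited by the authors holds the same processed signal, and its largest difference from the signal in the scanner files was 0.

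The log2 intensity minus the array's 75th percentile was averaged over the spots of a probe, leaving out control spots and outlier flags. Each tissue was fitted with limma 3.58.1 (R 4.3.3; lmFit, eBayes), over probes well above background on at least 4 of 10 arrays. P-values were adjusted with Benjamini-Hochberg over all probes tested, and calls are at 0.05. A gene is represented by its brightest tested probe. The difference between tissues is the interaction in a fit of all 20 arrays. Probe coordinates are mm7, per the file headers, and 22951 probes were named through their accession in RefSeq tables.

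Members and lists were chosen with earlier results of these data known. All members are named. Values on every array are given for up to 2 members with the smallest p per role and tissue, members that did not pass in WAT, the 4 smallest p of the tissue difference and members whose probes disagree, with others added after their values were seen. Of the other lists, genes come from the 4 smallest p per list and tissue. Nothing in the labels says that the samples of a group are from separate extractions or pools, though 5 mice per genotype are named, so p-values measure the spread between these samples. The number of arrays limits the precision. Alternatives were background correction, scaling, filter, slide, replicate number, moderation and each array left out.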

Additional observations from a re-analysis of the deposited data

Results flagged for a closer look

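Single arrays stood apart within their group for some members, by a gap to the nearest array of more than 0.71 of the group's range, which chance gives in about 1 in 20 groups. In liver this held for 12 of 28 members in WT and 0 of 28 in sg/sg, and all 12 were WT replicate 2 at the top. That array was at -1.08 for Ccna2, -2.0 for Cdk1 and 0.75 for Aurka. It was at -1.11 for Mad2l1, -1.58 for Ube2c and 1.52 for Birc5. It was at 0.49 for Cdca8, 1.20 for Incenp and -0.88 for Cenpe. It was at -2.34 for Zwilch, -0.10 for Mki67 and -0.66 for Prc1.

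In WAT this held for 3 of 38 members in sg/sg and 2 of 38 in WT. The sg/sg replicate 4 was lowest for Kif11 at -7.20 and for Mad2l1 at -3.69, and sg/sg replicate 1 was lowest for Kif22 at -1.19. WT replicate 2 was highest for Kif2c at -2.28 and for Ttk at -4.70.

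The genotype effect differed between WAT and liver by the interaction test (limma) for 18 members, given as WAT minus liver on the log2 scale. Among kinesins the differences were -1.92 for Kif23, -1.64 for Kif22 and -1.71 for Kif4. Among cyclins and kinases they were -1.82 for Ccna2, -1.56 for Ccnb2, -1.82 for Cdk1 and -1.78 for Plk1. For checkpoint and anaphase genes they were -1.48 for Bub1b, -1.39 for Ube2c and 0.58 for Pttg1. For passenger complex genes they were -1.11 for Incenp, -1.45 for Cdca8 and -1.47 for Birc5. For Cenpa the difference was -1.35, for Cenpe -1.85, for Mki67 -1.82, for Smc4 -0.57 and for Prc1 -1.81.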

How the results depend on the processing

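Dim probes and 5 arrays per group limit what could be called, and 10 members could not be tested in liver. In WAT 36 members were called lower and 1 higher, and the count was 36 to 37 lower under the other scalings, filters, moderation and slide blocks and 36 to 37 with any 1 array left out. With normexp correction 10 were lower and 0 higher, and 6 members changed sign: Kif18a (0.59), Kif11 (0.21), Ttk (0.72), Kif15 (0.27), Kif14 (0.077) and Kif2c (0.32), of which Kif2c was not called before. On sg/sg WAT replicates 2 and 4 that correction left an interquartile range of 2.94 and 0.724, against 4.63 to 5.04 on the other WAT arrays; without the local background, an alternative chosen after seeing the data, 34 were lower and 1 higher. Within slides 4, 5 and 6 the count was 0 each, with fewer arrays. With median scaling Pttg1 was not called. In liver, where 1 member was called lower and 0 higher, 0 were lower with normexp (1 higher), with normexp without the local background (2 higher), with no filter, with slide as a fixed or random block and within slide 2, and 2 were lower with quantile scaling, the filter on all 10 arrays, and trend and robust moderation. With 1 array left out, 0 to 1 were lower and 0 to 1 higher. For the difference between tissues, 17 lower and 1 higher became 7 and 0 with normexp, 6 and 0 with the slide block and 13 to 22 lower with 1 array left out. The causes were not tested.

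Same-numbered sg/sg and WT arrays of a tissue did not deviate together (r from -0.14 to 0.09 in WAT and -0.11 to 0.17 in liver). Whether the numbers pair WAT with liver arrays was not tested. With the replicate block 35 members were lower in WAT, 0 in liver and 19 for the difference. Over all genes, 5134 calls in WAT became 1161 with normexp and 3275 with the replicate block; 2680 in liver became 901 with no filter, 2 with the slide block, 1256 with the replicate block, 4262 with normexp without the local background and 864 to 3007 with 1 array left out; and 3549 for the difference became 2095 with normexp and 609 with the slide block. The median of all genes moved from 0.09 to 0.41 with normexp in WAT, from 0.05 to -0.06 with median scaling in liver and from 0.04 to 0.15 with median scaling for the difference. Calls that were higher made up 60.0% in WAT, against 72.4% with normexp without the local background; 57.1% in liver, against 29.5% with median scaling and 68% with normexp without the local background; and 53.6% for the difference, against 65.6% with median scaling.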
